A study of Camelus dromedarius with 4 samples.

Results

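The HOX genes of the dromedary camel supraoptic nucleus were examined as a family whose place in the body is well known. Members were all rows of the deposited expression table whose symbol was HOXA, HOXB, HOXC or HOXD followed by a number, which gave 27 of 18152 rows. Of these, 14 carried a mean for each season and 13 carried none. The rule itself used no measured value.

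The supraoptic nucleus (SON) is the group of large hypothalamic neurones that make vasopressin and oxytocin. It was taken from healthy, age-matched adult male camels of the Tergui breed, for which the study names no treatment. The paper describes the camels as hydrated. They were slaughtered either in winter at El Oued or in summer at Ouargla, both in Algeria. Total RNA was sequenced from 2 winter samples (replicates 2 and 3) and 2 summer samples (replicates 1 and 2), and the study asked what the desert season changes in this nucleus. Season, place and day of slaughter cannot be told apart in these groups. Sequencing was planned on 2 camels per season, and the labels do not tie a library to an animal, so p-values measure the spread between these samples.

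HOX genes encode homeodomain transcription factors that give each level of the head-to-tail axis its identity. They lie in 4 clusters, and the position of a gene in its cluster follows the level of the axis at which it is active: paralog groups with low numbers act in the hindbrain, middle groups in the neck and upper trunk, and groups with high numbers in the lower trunk, limbs and tail. The hypothalamus forms in the forebrain, ahead of the front limit of HOX activity in the embryo, and HOX genes are therefore a natural check on what a hypothalamic dissection contains.

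The 14 HOX genes with means had few reads in the SON. The table gives for each season the mean count after division by size factors, here called normalized counts. Only 2 of the 27 HOX rows (7.41%) reached a mean of 10 normalized counts in a season, the minimum the study used for its season test, against 13811 of all 18152 rows (76.1%). HOXB2, which patterns the hindbrain, had means of 16.5 in summer and 7.63 in winter. HOXC9, which sets the identity of thoracic motor neurones in the spinal cord, had means of 10.8 in summer and 3.85 in winter. Both passed the minimum through summer alone, and 0 of the 27 passed it in both seasons. A mean was given for 51.9% of HOX rows and for 88.4% of all rows. The highest HOX mean over both seasons, that of HOXB2, lay above those of 18.3% of the symbols with means, and the next, HOXC9, above 13.2%. These values are reads and were not corrected for the length of the gene.

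Among the 13 rows without a mean were HOXA3, HOXA10, HOXA11, HOXA13, HOXB3, HOXB7, HOXB8, HOXB13, HOXC4, HOXC10, HOXC11 and HOXD4. All 13 were counted as not detected. The lowest total among rows with a mean and a single solution was 3 reads over the 4 libraries, so a row without a mean cannot be taken to hold no reads. The other 12 genes of the 39 in the clusters (HOXA6, HOXA7, HOXA9, HOXB1, HOXB6, HOXC6, HOXC8, HOXC12, HOXD9, HOXD10, HOXD11 and HOXD12) were not analysed here.

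Each season mean is the average of 2 libraries, and each read of a library adds a fixed step to it, so the whole reads of each library could be recovered from the means. Every one of the 14 HOX genes with means had a single solution. The libraries are named by their size factors: winter library A (1.33), winter library B (0.946), summer library A (0.922) and summer library B (0.877). Which replicate each of them is was not assigned. A count of 0 in a library allows up to 3 reads, which is 2.26 to 3.42 normalized reads, and this limit covers counting error only.

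HOXB2 had 9 and 8 reads in winter libraries A and B, 0 in summer library A and 29 in summer library B. HOXC9 had 6 and 3 reads in the winter libraries, 0 in summer library A and 19 in summer library B. HOXA5, which acts in the neck region and in the neurones of the phrenic nerve, had 10 and 5 reads in winter, 0 in summer library A and 13 in summer library B. In all 3 genes the winter values lay between the 2 summer values, so the seasons overlapped.

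HOXC13, required for hair and nail formation, was the only HOX gene with reads in all 4 libraries. It had 1 and 4 winter reads beside 6 and 10 summer reads, so both summer libraries lay above both winter libraries. HOXD13, which patterns the digits and genital region, had 0 and 3 reads in winter, 0 in summer library A and 16 in summer library B. Its season means of 9.12 in summer and 1.59 in winter thus came mostly from a single library. HOXC5 had 5 and 4 reads in winter, 0 in summer library A and 5 in summer library B. HOXB9, a trunk gene that helps to shape the ribs, had 1 and 0 reads in winter, 0 in summer library A and 5 in summer library B.

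HOXD8 had 5 reads, all in winter library A. The remaining 6 genes (HOXA2, HOXA4, HOXB4, HOXB5, HOXD1 and HOXD3) had at most 3 reads in every library and totals of 3 to 6 reads, and no fold is given for them. Among them, the 3 reads of HOXA2, a hindbrain and second pharyngeal arch gene, and the 3 reads of HOXD1 were all in winter library B, whereas the 3 reads of HOXB4 were all in summer library B. In total, 8 of the 14 genes had reads in at least 3 libraries and 4 in a single library.

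**Figure D1:**
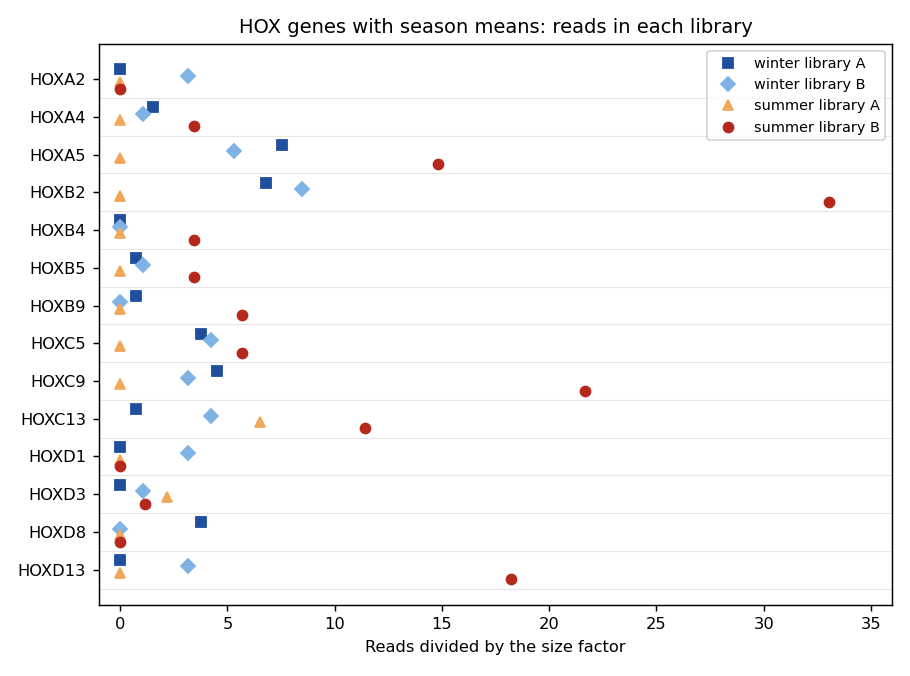
Reads divided by the library's size factor (x axis) for the 14 HOX genes with season means (y axis), with 1 marker for each of the 2 winter and 2 summer libraries and no error bars. Summer library A sits at 0 for 12 of the 14 genes, and summer library B lies to the right of the other libraries for 10 of them, reaching 33.1 for HOXB2.

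Summed over the 14 genes, HOX reads numbered 40 and 36 in winter libraries A and B, 8 in summer library A and 107 in summer library B. After division by size factors these were 30.2, 38.1, 8.68 and 122 normalized reads, so that summer library B held 61.3% of the family's reads and summer library A 4.36%. The 2 summer libraries thus stood farther apart than either stood from a winter library. HOXB2, HOXC9, HOXA5 and HOXD13 made up 77 of the 107 reads in summer library B (72.0%). Without HOXB2, the gene with the most reads, summer library B still held 59.0% and summer library A 5.76%.

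The same split appeared in all 4 clusters. The HOXA genes had 12 and 9 reads in winter, 0 in summer library A and 16 in summer library B. The HOXB genes had 11 and 9, then 0 and 40. The HOXC genes had 12 and 11, then 6 and 34, and the HOXD genes 5 and 7, then 2 and 17. Summer library B was highest and summer library A lowest in each cluster.

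Ordered along the axis, reads were spread over hindbrain, trunk and tail genes rather than held by the hindbrain groups. Paralog groups 1 to 3 (4 genes) had 9 and 15 winter reads against 2 and 30 summer reads. Groups 4 to 8 (6 genes) had 23 and 11 against 0 and 27. Groups 9 to 13, the most posterior (4 genes), had 8 and 10 against 6 and 50. All 3 classes were highest in summer library B.

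Other symbols with equally few reads divided between the libraries in the same order at the extremes, but less unequally. There were 2836 other symbols with 3 to 46 reads, the range of the HOX genes. Of these, 46.8% had 0 reads in summer library A, beside 12 of 14 HOX genes, and 49.3% were highest in summer library B, beside 10 of 14 HOX genes. Their normalized reads divided as 23.3% and 22.9% in the winter libraries, 15.5% in summer library A and 38.3% in summer library B. Absence from summer library A was more frequent at lower totals, with 58.6% of other symbols of 3 to 25 reads and 23.9% of those of 26 to 46 reads at 0 there. The cause of the split was not tested.

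Olfactory receptors, the odour receptors of the nose, were added as a second family after values were seen. Their 230 symbols with recovered reads had 51.6% of normalized reads in summer library B and 9.40% in summer library A, and 51.3% of them were at 0 in summer library A. The polycomb and trithorax regulators divided almost evenly, with 23.6% to 26.9% of normalized reads in each library over the 13 members with recovered reads. Only 2 of these 13 had 3 to 46 reads. All symbols with a single solution, of any depth, had 23.22% to 28.55% in each library. The 16 midbrain and hindbrain factors with 3 to 46 reads had 43.6% in summer library B and 7.39% in summer library A. The 16 forebrain factors in that range had 31.8% and 10.4%. The 3 ParaHox genes in that range had 64.99% in summer library B and 0 reads in summer library A, a split still more unequal than that of the HOX genes. No test was made between the sets.

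**Figure D2:**
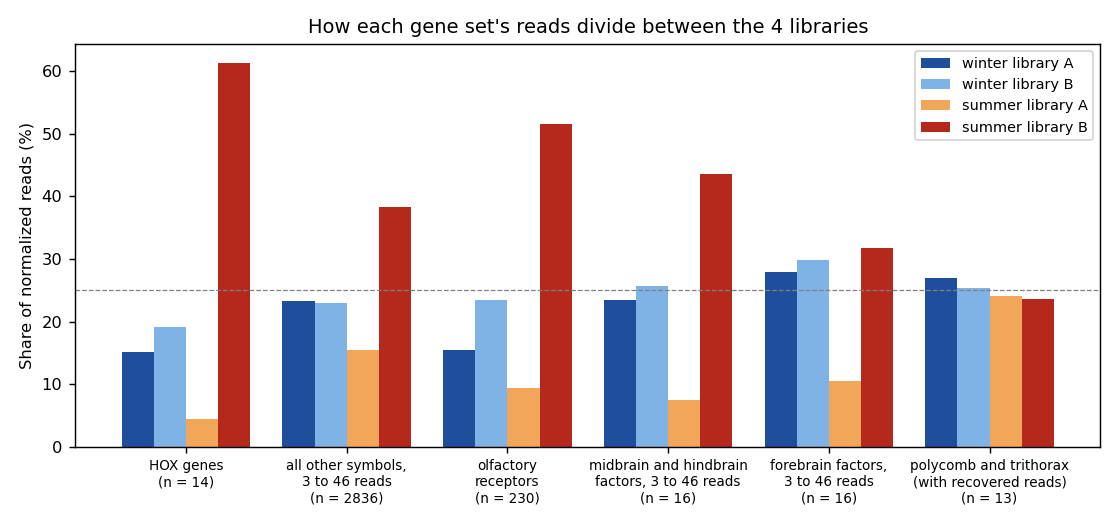
Share of each gene set's normalized reads (y axis, %) in winter libraries A and B and summer libraries A and B (bars, no error bars), where the dashed line marks an even share. Summer library B holds 61.3% of HOX reads and 38.3% of the reads of other symbols with 3 to 46 reads. The polycomb and trithorax bars stay between 23.6% and 26.9%. That set and the olfactory receptors are not limited to 3 to 46 reads.

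The comparison of winter with summer asked whether any HOX gene changed with season. The summer mean was the higher for 10 of the 14 genes and the winter mean for 4 (HOXA2, HOXC5, HOXD1 and HOXD8). Over all symbols with means, 53.8% were higher in summer, and over the other symbols of 3 to 46 reads 56.8%. The median log2 ratio of winter over summer, on the scale log2(mean + 1), was -0.65 for the HOX genes and -0.04 for all symbols. This median rested on summer library B, and without it the HOX median was 1.37. In 2 genes, HOXC13 and HOXD3, both summer libraries lay above both winter libraries, against 15.5% of all symbols with single solutions and 12.2% of the other symbols of 3 to 46 reads. HOXD3 had 0 and 1 read in the winter libraries against 2 and 1 in the summer libraries, and without scaling only HOXC13 was left. For 0 HOX genes did both winter libraries lie above both summer libraries, against 13.7% of all symbols. With 2 libraries in each group the smallest two-sided p of an exact permutation test is 0.333, so no single gene could pass by that test.

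HOXB2 and HOXC9, the members above the filter, were tested among 7605 symbols by edgeR's quasi-likelihood method, and neither passed a call rule. Both had passed the filter through summer alone, which favours a lower winter value, so the direction of their difference is no separate result. HOXB2 differed by -1.10 on the log2 scale (winter minus summer, SE 1.27, unadjusted p = 0.414, Benjamini-Hochberg adjusted p = 0.981). HOXC9 differed by -1.40 (SE 1.35, unadjusted p = 0.331, adjusted p = 0.981). Both standard errors were close to the size of the difference. By the study's rule, an unadjusted p under 0.05 and more than 2-fold, 0 of 2 HOX genes and 1.68% of all symbols were called (0.855% higher in winter and 0.828% higher in summer). With an adjusted p under 0.05, 0 HOX genes and 0.00% of all symbols were called, and 0 HOX genes and 2.00% of all symbols had an unadjusted p under 0.05. DESeq2, edgeR's exact test and limma-voom also called 0 HOX genes by either rule. Over all 7605 symbols the study's rule called 59, 96 and 82, in that order. An adjusted p under 0.05 was reached over all symbols by 1 symbol each in DESeq2 and the exact test.

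Without the filter all 14 genes entered the test, among 9847 symbols. Again 0 had an unadjusted p under 0.05 (1.83% of all symbols), 0 were called by the study's rule (1.58%) and 0 had an adjusted p under 0.05 (0.00%), and edgeR's adjusted p-values ran from 0.982 to 0.993. The lowest unadjusted p was that of HOXC13, 0.123, with a difference of -1.94 (SE 1.14). A p that misses the threshold does not show that the seasons were alike at this depth.

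The direction depended on which summer library was kept. Without summer library A, HOXB2 differed by -2.11 (adjusted p = 0.121) and HOXC9 by -2.43 (adjusted p = 0.0967) in edgeR's quasi-likelihood test. The study's rule then called 6 of the 14 unfiltered genes higher in summer (HOXB2, HOXB4, HOXB9, HOXC9, HOXC13 and HOXD13), against 12.0% of all symbols. Without summer library B the 2 genes turned round, to fitted values of 6.03 and 5.11 in winter's favour against a single summer library with 0 reads of either, which are no bound on a fold. The rule then called 2 of the 14 (HOXA5 and HOXB2) higher in winter, against 12.1% of all symbols. In both fits the lone summer library was assumed to vary like the other samples, and 0 HOX genes had an adjusted p under 0.05. Without winter library A the rule called 0 of the 14, against 0.325% of all symbols, and without winter library B 0 of the 14, against 0.548%.

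Most genes beside the HOX clusters reached the minimum, as did 76.1% of all rows. Order was taken from the RefSeq annotation of the assembly mCamDro1.pat, used for names and neighbours alone since the authors mapped to their own assembly. Of 24 protein-coding neighbours, 3 on each side of each cluster, 23 had a row (4 of them under an older symbol) and 19 reached a mean of 10 normalized counts. Next to HOXA, HIBADH, an enzyme of valine breakdown, had means of 125 in summer and 71.4 in winter, and SNX10, an endosomal sorting protein, had 98.1 and 72.4. Next to HOXB, the nearest gene on the posterior side was TTLL6, a tubulin-modifying enzyme, with means of 9.69 and 5.59. It had 5 and 7 winter reads, 0 in summer library A and 17 in summer library B, the same order as in HOXB2. Next to HOXC, the DNA repair enzyme SMUG1 had 72.9 and 72.6, and next to HOXD the mitochondrial import protein MTX2 had 136 in both seasons. The homeobox genes EVX1 and EVX2, which sit at the posterior ends of HOXA and HOXD, had rows without a mean, as did ATF7, a widely expressed transcription factor gene near HOXC. CBX1, a heterochromatin protein gene beyond HOXB, was called by the study's rule in edgeR's quasi-likelihood test, higher in winter by 1.04 (SE 0.39, adjusted p = 0.981). The winter libraries had 138 and 169 reads of it and the summer libraries 58 and 65. It was the 1 call among 9 listed flanking genes tested, against 0.855% of all symbols called higher in winter. Flanking genes without a single solution were not tested.

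**Figure D3:**
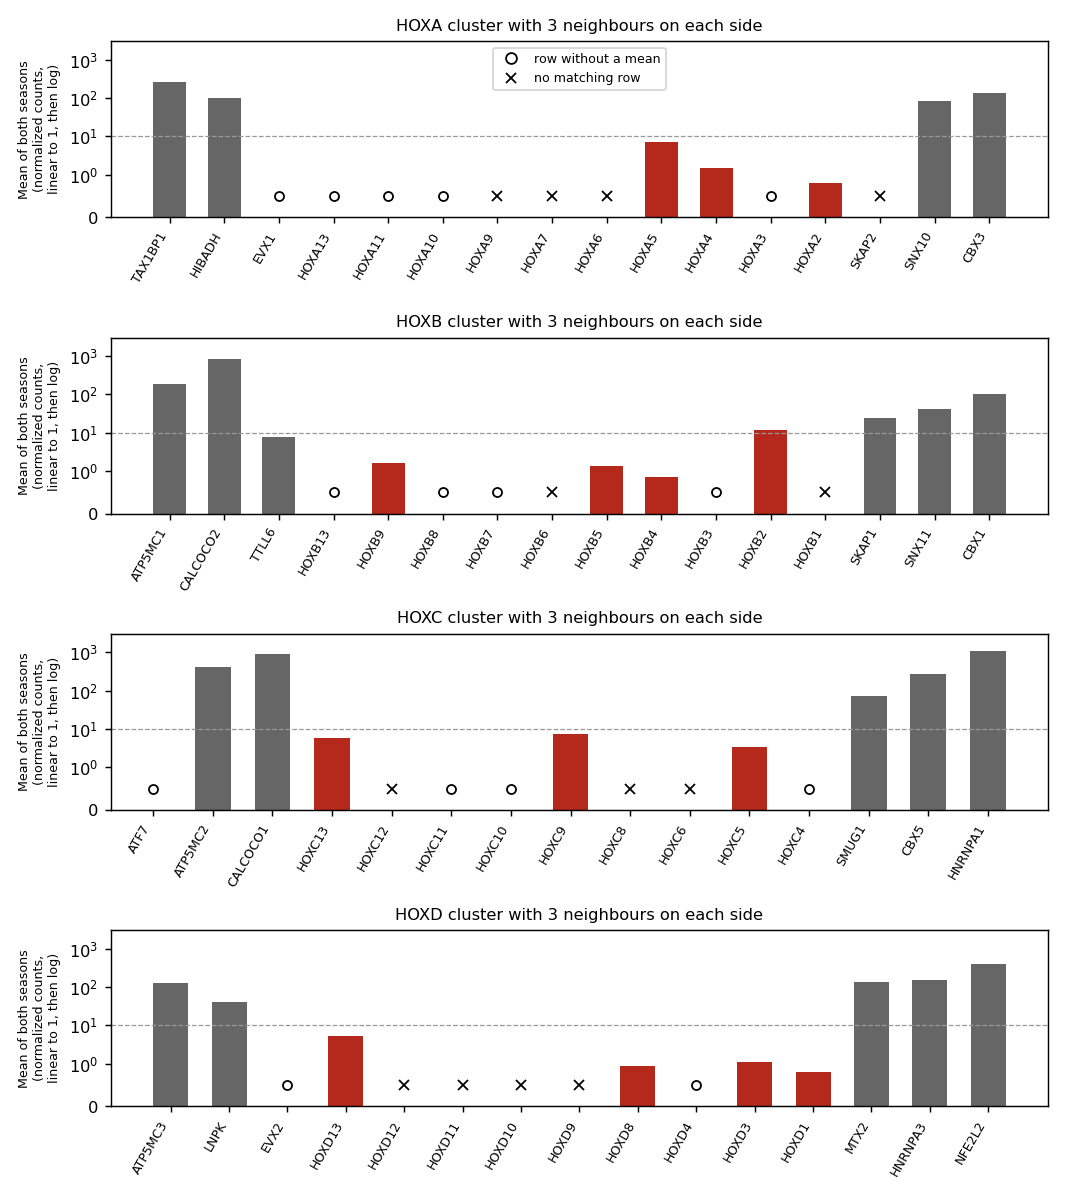
Mean normalized count of both seasons (y axis, linear up to 1 and logarithmic above) for genes of each HOX cluster in order of paralog number (red) and 3 protein-coding neighbours on each side (grey), with the dashed line at 10, open circles for rows without a mean and crosses for genes with no matching row. HOXB2 is the 1 red bar above the line, and 19 of the 24 neighbours reach 10 in a season, beside 76.1% of all rows.

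Within the annotation used for order, the spans of 4 detected genes overlap another HOX gene: HOXA4 and HOXA5 overlap HOXA3, HOXC5 overlaps HOXC4 and HOXD3 overlaps HOXD4. Reads of these 4 genes are uncertain, since the overlap in the authors' own gene models is unknown. Whether strand was used in counting is not given in the sources used here, and HOX clusters hold many antisense transcripts, so sense and antisense reads could not be told apart.

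The partners and regulators of HOX proteins were present in the same libraries. The TALE homeodomain proteins bind DNA together with HOX proteins, and also act without them in the forebrain. Of 9 TALE genes, 8 reached a mean of 10, led by PKNOX1 (445 in summer, 460 in winter), MEIS3 (199 and 303), MEIS1 (119 and 141) and PBX2 (90.8 and 131), and 0 of the 5 tested were called in either direction. All 38 polycomb and trithorax genes, which keep HOX clusters silent or active, reached 10, led by KMT2C (2751 and 2793), with 0 of 13 tested called. Only members with a single solution were tested. KMT2D (232 in summer, 483 in winter) and KMT2B (127 and 266) were among those not tested. The winter mean was the higher for 26 of the 38 genes and the summer mean for 12. Of 17 retinoic acid genes with rows, which control HOX onset in the embryo, 14 reached 10, led by ALDH1A1 (1192 and 1203), with 0 of 11 tested called. Over all rows 76.1% reached 10, and over all symbols tested the study's rule called 1.68%.

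Those ParaHox and EVX genes, the nearest relatives of the HOX family, that carried means also had few reads. Of 8 rows, 4 carried means and 1 reached 10. That gene was CDX4, a caudal factor of the tail end of the embryo, with 24 and 23 winter reads beside 8 and 24 summer reads. PDX1, a factor of the pancreas, had 2 and 1 reads in winter, 0 in summer library A and 10 in summer library B. All 3 members other than CDX4 were at 0 in summer library A.

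Other homeobox families were read more widely. The share of rows with a mean of at least 10 was 7.41% for HOX, 15.4% for NKX, 26.7% for paired-like genes, 33.3% for IRX, 66.7% for LIM genes and 90.9% for the wider TALE family with TGIF genes, families grouped after values were seen. HOX had the lowest share of the 12 homeobox families, beside 76.1% of all rows, and no test was made. Of 38 forebrain and hypothalamic factors with rows, 25 reached 10, led by ARNT2 (1048 and 1108), TCF7L2 (174 and 246), NR2F1 (127 and 139) and PAX6 (120 and 126). By the study's rule 2 of 22 tested were called higher in winter and 0 higher in summer, where 0.855% of all symbols were called higher in winter. The 2 were FEZF1 (17.7 against 1.14 in summer) and NKX2-2 (64.4 against 27.2). FEZF1 had passed the filter through winter alone, so the filter favoured its direction. Without the filter the same 2 were called among 34 tested, where 1.58% of all symbols were called in either direction. FEZF1 had 30 and 12 winter reads, 0 in summer library A and 2 in summer library B, so its summer mean rested on 2 reads. NKX2-2 had 88 and 59 winter reads beside 27 and 22 summer reads. Of 37 midbrain and hindbrain factors with rows, 10 reached 10 and 12 carried no mean. Among them were GBX1 (116 in winter, 58.0 in summer), PAX8 (59.7 and 46.9) and PAX5 (24.6 and 49.3), and 0 of 8 tested were called.

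**Figure D4:**
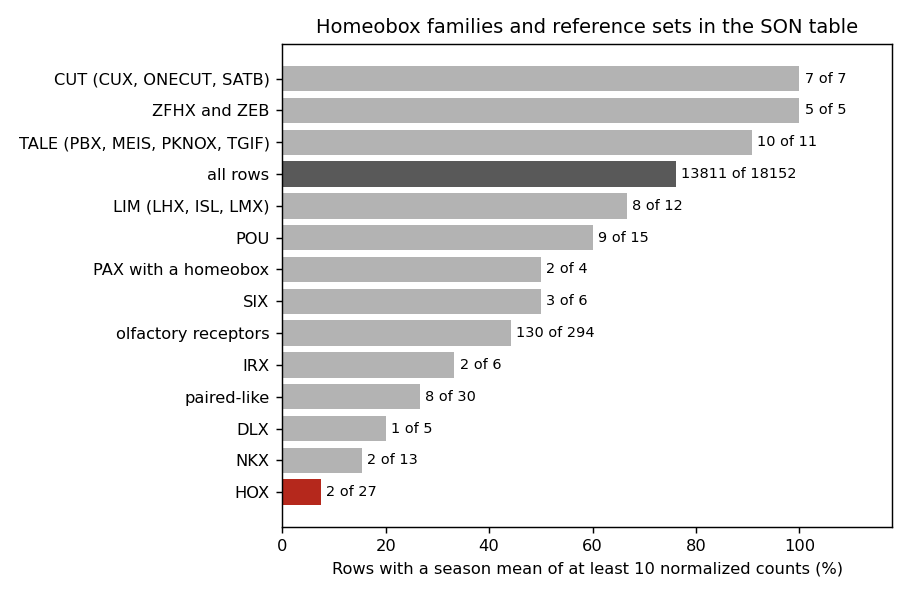
Percent of rows with a season mean of at least 10 normalized counts (x axis) for homeobox families, olfactory receptors and all rows of the table, with the number of rows beside each bar and no error bars. HOX (red, 2 of 27) has the shortest bar, and all rows (13811 of 18152) reach 76.1%.

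The tissue label was checked against markers. All 9 SON markers with a row reached 10 in a season, beside 76.1% of all rows. Among them were ARNT2 and OXT, the oxytocin precursor (592 in summer, 621 in winter). The OXT value is uncertain because part of its sequence is near-identical to that of AVP. CARTPT reached 10 in winter alone (10.7, against 3.42 in summer). AVP and GAL had no row under those symbols, although a row is named as a putative AVP. PDYN, the dynorphin precursor, was the 1 of 6 tested that the study's rule called, higher in summer (127 against 35.9), beside 0.828% of all symbols called in that direction. Winter library B stood apart in the sum of these markers: the summed normalized reads of the 6 with recovered reads were 328 and 137 in winter and 283 and 339 in summer. PDYN had 84 and 8 winter reads, OTP 105 and 20, SIM1 84 and 13, and CARTPT 20 and 6. The split was smaller in NOS1, with 82 and 41 winter reads beside 32 and 38 summer reads. It was also smaller in POU3F2, with 59 and 42 beside 28 and 53. The part of this difference in the HOX values was not tested.

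Markers of tissue that a dissection could include were also read, and their part in the HOX values was not tested. In bulk tissue, fewer cells of a type and less RNA per cell cannot be told apart. Anterior pituitary markers reached 10 in 8 of 11 rows, led by POMC (1294 in summer, 738 in winter) and GH1 (464 and 1132). The summed normalized reads of the 7 with recovered reads were 202 and 368 in winter and 216 and 416 in summer, so these were highest in summer library B, like the HOX genes. Blood markers reached 10 in 9 of 13 rows, endothelial markers in 11 of 12 and meningeal markers in 9 of 13. These shares were 72.7% for pituitary, 69.2% for blood, 91.7% for endothelial and 69.2% for meningeal markers, beside 76.1% of all rows. Such counts alone do not show whether that tissue was included. Blood markers summed to 282 and 438 in winter and 515 and 479 in summer, endothelial markers to 319 and 268, then 383 and 367, and meningeal markers to 552 and 506, then 664 and 684. These 3 sums were not low in summer library A, but rest on genes with many more reads than any HOX gene. Among members with 3 to 46 reads, summer library A held 8.47% of the normalized reads of 5 blood markers, its lowest share of the 4 libraries, and 35.1% of those of 3 meningeal markers, and the single endothelial marker in that range had 0 reads there. COL1A2, a collagen of fibroblasts, was called by the study's rule, higher in summer (102 against 50.7). It was the 1 call among 5 pituitary, 8 blood, 5 endothelial and 9 meningeal markers tested, against 0.828% of all symbols.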

How the data were processed

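Total RNA of the supraoptic nucleus was sequenced in 4 libraries (paired-end, rRNA-depleted, stranded kit per the methods of the study). The authors used TopHat with an assembly of their own and HTSeq for counting (versions not given in the sources used here). They deposited raw read counts for 64989 gene models per library, and a table of gene symbols with a signal for each season, which is the average of the counts after DESeq size-factor scaling, printed with 6 significant digits. The table also holds edgeR fold changes and p-values of the authors, which were not used. The count files give no symbols, so HOX genes were read from the table. Rows without a mean were counted as not detected. The 4 count files entered no comparison of seasons and were used only for depth and a description of each library.

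Each mean was solved as a sum of whole reads of 2 libraries. All 16053 rows with means gave whole reads (100.0%), within the rounding of the deposited means, and 9847 a single solution in both seasons. Low summer means (under 20) gave whole reads in 100.0% of cases, and 0.214% did after small random shifts. Single solutions favour symbols with few reads. The main test was edgeR 4.0.16 (glmQLFit with legacy set to FALSE, glmQLFTest, R 4.3.3) on these reads, with the recovered size factors, for symbols that reached a mean of 10 in either season, and Benjamini-Hochberg adjustment over all symbols tested. Alternatives were TMM, RLE and total-count scaling, DESeq2 1.42.0, edgeR's exact test, limma-voom (limma 3.58.1), no filter, a filter in both seasons, pseudocounts of 0.5 and 5 in place of 1, other detection limits, and each library left out in turn.

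Neighbours were matched by symbol, 4 of them by older symbols (ATP5G1, ATP5G2, ATP5G3 and LNP) supplied by hand. Groups came from the sample labels. The reads on gene models ran from 4379162 to 6902037 per library, and the limit set by 0 reads there is 0.435 to 0.685 CPM, for counting error only. Levels per coding length were planned and not computed, since no protein or transcript lengths were at hand, and no sequences are printed. HOX genes that reached a mean of 10, the 6 next by mean over both seasons, at most 4 genes of each list and genes past a call rule were named by rule. Further HOX genes were named to account for the members, and neighbours were named after values were seen. The results of 2 genes are not reported here. Members and lists were chosen with earlier results of these data known. Scripts were tested on simulated data. Figures used matplotlib 3.10.9.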

Additional observations from a re-analysis of the deposited data

How the results depend on the processing

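The number of HOX genes counted as detected was 2 at a mean of 10 in a season, 14 at any mean, 6 at the level of 3 reads in each library and 0 when both seasons had to reach 10, and it ran from 0 to 5 with 1 library left out (0 without summer library B, 5 without summer library A). Leaving out each library in turn gave a HOX median log2 ratio from -1.15 to 1.37, the latter, reversed, without summer library B. The study's rule called 0 HOX genes in 12 of 16 alternative fits. The other 4 were the fits, filtered or not, that left out a summer library and so kept a single summer library. HOXB2 and HOXC9 kept their direction in 13 of 16 fits each, with their lowest values, -2.11 and -2.43, without summer library A. These fits reuse the same libraries, and both genes passed the filter through summer alone, so the count is no separate support. The direction reversed under limma-voom, to 0.96 and 0.43, for which the cause was not tested. It also reversed without summer library B, to 6.03 and 5.11 with or without the filter. The summer library kept there had 0 reads of both. HOX genes without overlap between seasons fell from 2 to 1 under total counts and without scaling. Requiring a mean of 10 in both seasons left no HOX gene to test. No paired analysis was possible because the seasons share 1 replicate number only, and the recovered libraries carry none. With 2 libraries per season and at most 46 reads per HOX gene, depth limits every difference given here. Leaving out libraries in the counts of detected genes, the HOX median and the unfiltered fits, the fit of symbols of low mean and the count without scaling were chosen after seeing the data.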

Other observations

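The raw count files, which do not name HOX genes, also held a library with few weakly read gene models. Summer replicate 2 had reads on 40178 of 64989 models, whereas summer replicate 1 had 52456, winter replicate 2 had 50154 and winter replicate 3 had 49320. Of the 21573 models with 3 to 46 reads over the 4 files, 55.9% were at 0 in summer replicate 2, 11.5% in summer replicate 1, 20.6% in winter replicate 2 and 21.3% in winter replicate 3. Total depth was not lowest there, with 5520242 reads on models in summer replicate 2 and 4406533 in summer replicate 1. The recovered libraries were not matched to these replicates.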
